A study of Mus musculus with 6 samples.

Results

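Collagen chain genes were followed across 6 RNA-seq libraries of mouse mesoderm progenitor cells. Every gene name of the pattern Col, number, a, number was taken, which gave 44 of the 19342 names in the table. By structure 11 were fibrillar, 8 were basement membrane collagens, 9 were fibril-associated collagens with interrupted triple helices (FACIT) and 16 belonged to other classes. Their values in the 4 growth factor libraries had to be placed first, because those columns were out of step with the gene names, and 40 of the 44 were placed securely. Of these, 33 reached 1 CPM, the usual count scaled for library depth, in at least 1 library and were analysed, and 7 did not.

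The cells were primary progenitors of C57BL/6 mice, which the series places in the tailbud. They were grown in medium with serum on feeder layers of C57Bl/6 mouse embryonic fibroblasts whose division was blocked with mitomycin C, and such fibroblasts are a possible source of collagen RNA. Each condition had 1 library: 0 h untreated; 96 h untreated; recombinant human (rh) BMP4 for 5 h; rhBMP4 with rhFGF8 for 5 h; rhBMP4 for 11 h; and rhBMP4 with rhFGF4 for 11 h. The labels give growth factors after 96 h of culture, which would add up to 101 h or 107 h in culture for the treated cells. No untreated library of 101 h or 107 h was among the samples, so growth factor and added culture time cannot be told apart in any comparison with 96 h. With 1 library per condition no difference has a replicate check. In bulk RNA, fewer cells of a type and less RNA per cell cannot be told apart.

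Collagens are secreted proteins in which chains wind into a triple helix. Fibrillar collagens such as types I, III and V build the tensile fibrils of connective tissue, type IV forms the sheet-like network of basement membranes, and FACIT collagens decorate fibril surfaces. In the embryo the early epithelia and vessels lie on type IV collagen, while type I and type III collagen mark mesenchyme and fibroblasts.

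The libraries held between 179196459 and 272743104 counts. CPM values were scaled with edgeR's trimmed mean of M-values (TMM). A gene was called higher or lower where log2((CPM + 0.5)/(CPM + 0.5)) was at least 1 in size, which is 2-fold, and the 95% counting interval of the ratio excluded 1. Such intervals cover counting error only. The cell state differed strongly between libraries before any collagen is considered: 13 genes of tailbud and presomitic mesoderm, analysed out of 15 named, summed to 488 CPM at 0 h, 45.2 at 96 h, 450.3 with BMP4 for 5 h, 445 with BMP4 and FGF8, 255 with BMP4 for 11 h and 77.6 with BMP4 and FGF4. The 5 h libraries therefore stood near 0 h, although 5 h of growth factor after 96 h of culture would add up to 101 h. Of all genes, 26.7% with BMP4 for 5 h and 24.8% with BMP4 and FGF8 were closer to the 96 h value than to the 0 h value. Whether the cells of these libraries had 101 h in culture was not tested.

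The collagen genes with the largest ratio of 96 h over 0 h are shown first by the 250 bases upstream of their RefSeq start, 5′ to 3′ on the strand of the gene, build GRCm38.p6. They are the first 4 in that order that have an entry in the RefSeq promoter table and no window on an annotated exon. Their places are chr1:45311288-45311537 on the plus strand for Col3a1, chr1:90843972-90844221 on the minus strand for Col6a3, chr4:47207762-47208011 on the plus strand for Col15a1 and chr11:51289670-51289919 on the plus strand for Col23a1. Capitals mark the motif CCAAT, the motif known as TATAAA and the motif GGGCGG, searched on both strands.
Col3a1: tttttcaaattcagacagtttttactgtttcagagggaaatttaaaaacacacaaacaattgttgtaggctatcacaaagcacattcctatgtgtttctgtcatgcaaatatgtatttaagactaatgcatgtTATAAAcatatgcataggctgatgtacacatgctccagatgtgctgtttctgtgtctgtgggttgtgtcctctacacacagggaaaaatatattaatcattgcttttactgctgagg
Col6a3: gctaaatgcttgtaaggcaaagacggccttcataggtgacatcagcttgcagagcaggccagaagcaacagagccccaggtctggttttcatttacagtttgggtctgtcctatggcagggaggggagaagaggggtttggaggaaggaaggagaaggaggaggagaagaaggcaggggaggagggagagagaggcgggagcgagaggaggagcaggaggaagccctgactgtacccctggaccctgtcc
Col15a1: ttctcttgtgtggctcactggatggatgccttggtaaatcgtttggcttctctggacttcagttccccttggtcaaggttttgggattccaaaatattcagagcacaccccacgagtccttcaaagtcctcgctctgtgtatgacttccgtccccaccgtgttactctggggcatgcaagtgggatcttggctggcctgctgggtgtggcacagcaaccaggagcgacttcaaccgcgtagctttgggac
Col23a1: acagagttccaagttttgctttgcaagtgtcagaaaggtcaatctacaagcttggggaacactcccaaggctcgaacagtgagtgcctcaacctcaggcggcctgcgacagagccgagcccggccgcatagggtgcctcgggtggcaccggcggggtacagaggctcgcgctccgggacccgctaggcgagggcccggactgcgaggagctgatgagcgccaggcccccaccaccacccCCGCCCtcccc

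RefSeq promoter entries matched 35 of the 44 genes, with 38 windows. CCAAT lay in 34.2% of the collagen windows and in 33.8% of all 32851 windows of this length, and TATAAA in 13.2% and 12.4%. GGGCGG lay in 57.9% of the collagen windows and in 32.7% of all windows. Of the 38 collagen windows, 18 touch an annotated exon and are counted here, and all windows were not checked for this. Among the 4 sequences shown, Col3a1 holds TATAAA and Col23a1 holds GGGCGG on the opposite strand, while Col6a3 and Col15a1 hold none of these letters.

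After 96 h without growth factor, collagen RNA had shifted towards fibril-forming chains. Of the 33 genes, 11 were at least 2-fold higher than at 0 h, where 3.87% of all 13822 analysed genes were, and 1 was lower, where 2.3% of all genes were. The collagen median was 0.46 on the log2 scale, beside 0.00 over all genes. Higher were 5 of 11 fibrillar genes, 1 of 6 basement membrane genes, 1 of 5 FACIT genes and 4 of 11 others. The heat map of changes from 0 h shows the block of type I, III and V chains at its top.

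**Figure D1:**
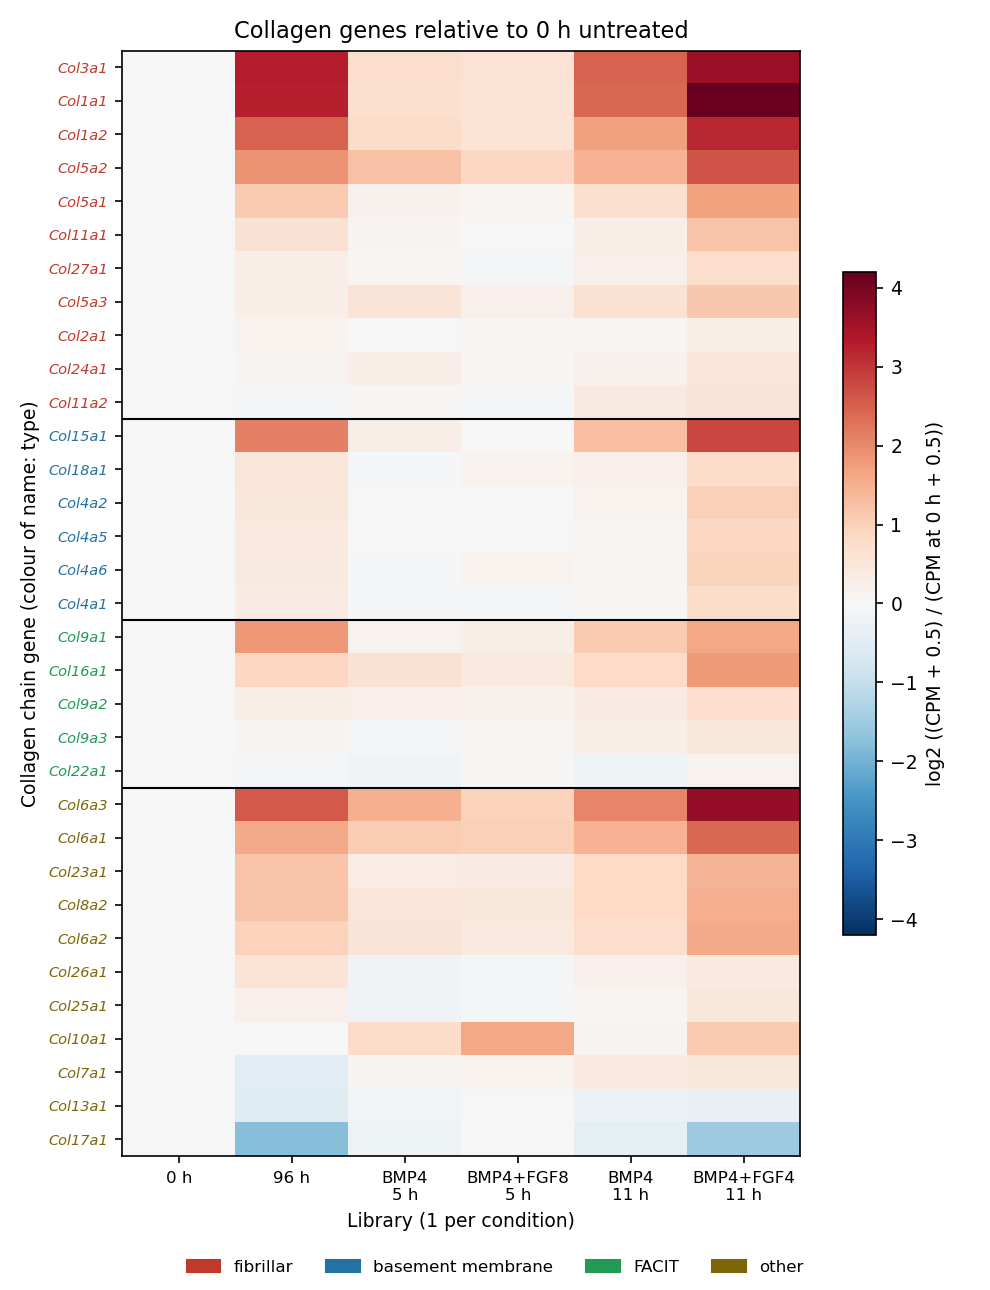
Log2 ratio of (CPM + 0.5) in each library (columns, 1 per condition) over (CPM + 0.5) at 0 h for the 33 analysed collagen genes (rows, grouped by type and ordered by the ratio at 96 h). Red is higher and blue lower than at 0 h: Col1a1 and Col3a1 are the darkest rows at 96 h with log2 ratios of 3.27 and 3.28, the 4 type IV genes are pale at 96 h, and Col17a1 is blue at 96 h with a log2 ratio of -1.80.

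Col1a1 and Col1a2 encode the chains of type I collagen, the main fibril of skin, tendon and bone. Col1a1 (chr11:94936224-94953042, plus strand) stood at 19.2 CPM at 0 h, 189.7 at 96 h, 31.2 with BMP4 for 5 h, 29.6 with BMP4 and FGF8, 105 with BMP4 for 11 h and 353 with BMP4 and FGF4. Col1a2 (chr6:4504814-4541544, plus strand) stood at 25.1 CPM at 0 h, 141 at 96 h, 43.3 with BMP4 for 5 h, 37.4 with BMP4 and FGF8, 83.5 with BMP4 for 11 h and 227 with BMP4 and FGF4. Both genes were lowest at 0 h and highest with BMP4 and FGF4. The ratio of 96 h over 0 h was 9.86-fold for Col1a1 (95% counting interval 9.56 to 10.2) and 5.61-fold for Col1a2 (5.45 to 5.77).

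Type III collagen, a partner of type I in elastic soft tissues, followed the same order of libraries. Col3a1 (chr1:45311538-45349706, plus strand) stood at 25.4 CPM at 0 h, 251 at 96 h, 42.3 with BMP4 for 5 h, 39.1 with BMP4 and FGF8, 143 with BMP4 for 11 h and 313 with BMP4 and FGF4. Its ratio of 96 h over 0 h was 9.90-fold (9.63 to 10.2). The level of Col3a1 per length, in CPM per kb of exon, was 0.882 to 0.907 of that of Col1a1 in 5 libraries and 0.593 of it with BMP4 and FGF4.

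Type V collagen starts and limits the width of type I fibrils. Col5a1 stood at 37.7 CPM at 0 h, 81.7 at 96 h, 42.6 with BMP4 for 5 h, 39.7 with BMP4 and FGF8, 59.8 with BMP4 for 11 h and 123 with BMP4 and FGF4. Col5a2, which lies tail to tail with Col3a1 on chromosome 1 (chr1:45374321-45503282, minus strand), stood at 13.4, 51.1, 31.8, 24.7, 37.9 and 86.8 CPM in that order of libraries. Col5a2 differed from Col5a1 in the 5 h libraries: with BMP4 for 5 h it was 2.38-fold above 0 h (2.28 to 2.49), and Col5a1 was 1.13-fold above it (1.10 to 1.17). Col5a3, a rarer chain of the same type, ranged from 0.311 CPM at 0 h to 1.28 with BMP4 and FGF4 and was called in none of the 7 comparisons.

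The remaining fibrillar collagens, among them those of cartilage and notochord, did not share this range. Col2a1, the chain of type II collagen, stood at 90.1 CPM at 0 h, 98.9 at 96 h, 90.01 with BMP4 for 5 h, 95.1 with BMP4 and FGF8, 94.3 with BMP4 for 11 h and 109 with BMP4 and FGF4. Per length it was the highest fibrillar gene at 0 h, with 9.75 CPM per kb beside 2.93 for Col1a1. At 96 h the order was turned, with 10.7 for Col2a1 and 28.9 for Col1a1. Col11a1, a minor chain of cartilage fibrils, ranged from 13.5 CPM at 0 h to 31.4 with BMP4 and FGF4. Col11a2 (2.56 to 4.22 CPM), Col24a1 (2.17 to 3.29) and Col27a1 (10.8 to 18.8) were also highest with BMP4 and FGF4, and none of these 5 genes was called in a comparison under TMM scaling.

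**Figure D2:**
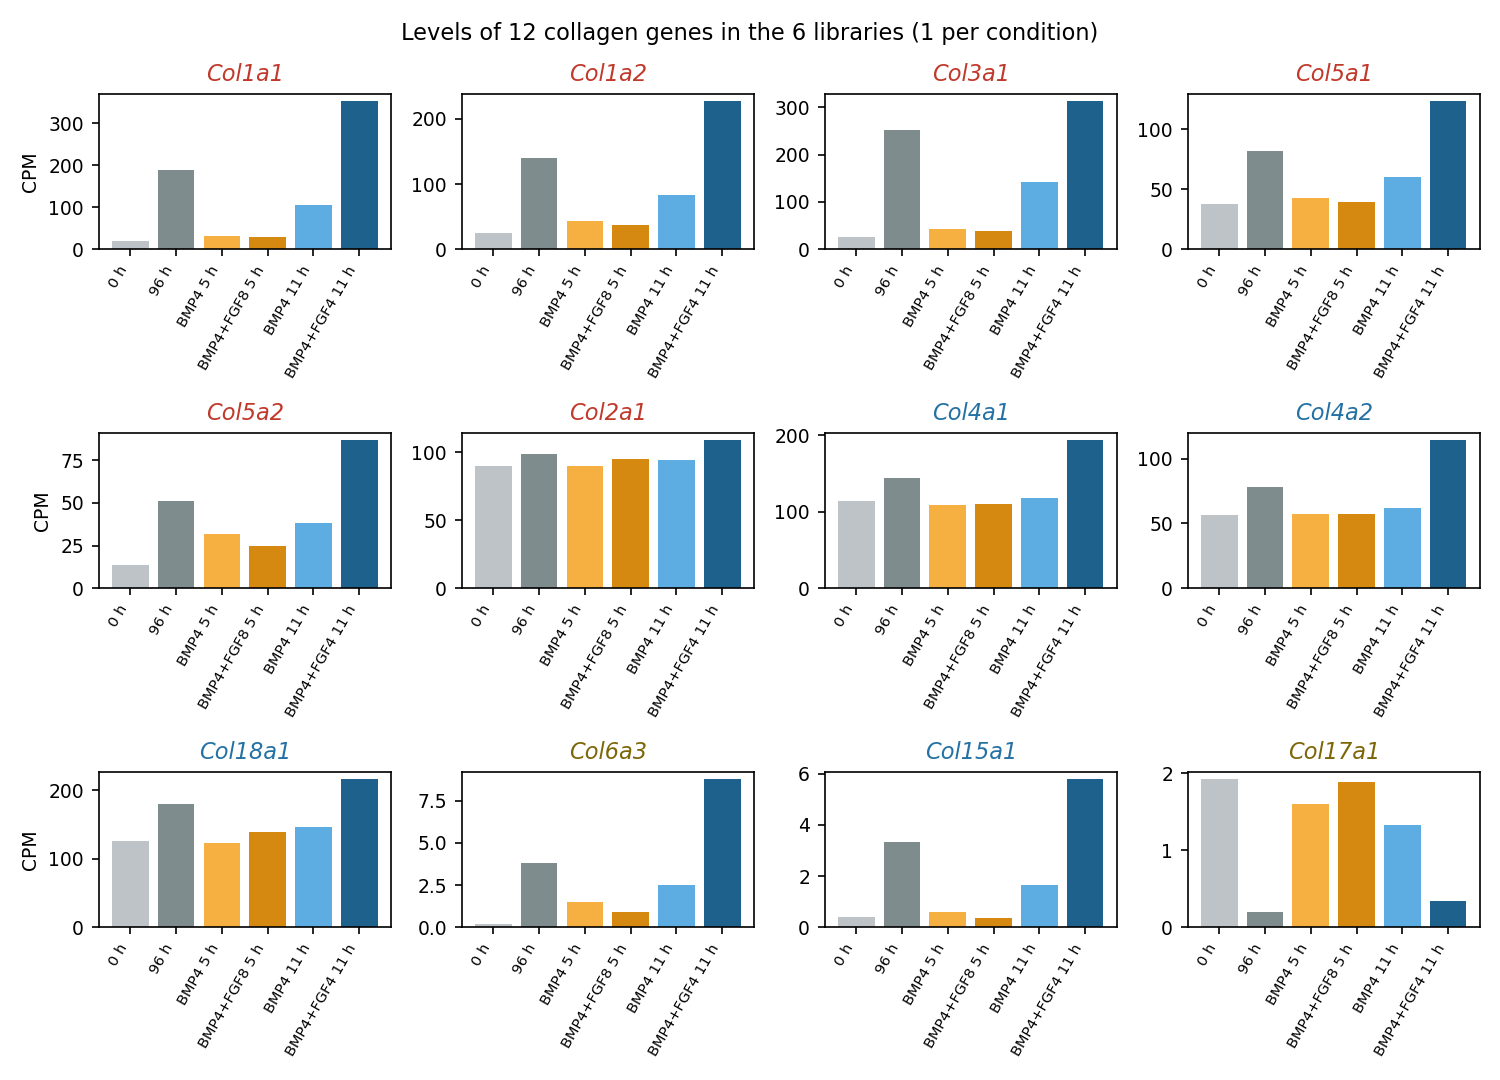
CPM of 12 collagen genes (1 panel each, bars from 0, 1 bar per library, no error bars because each condition has 1 library; the colour of the name gives the type as in the heat map). Col1a1 goes from 19.2 CPM at 0 h to 353 with BMP4 and FGF4, Col2a1 stays between 90.01 and 109, and Col17a1 has its low values at 96 h (0.195) and with BMP4 and FGF4 (0.344).

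Type IV genes differed less than type I and III genes between 0 h and 96 h, and none of the 4 analysed was called in any comparison under TMM scaling. At most 3.87% of all genes were called in 1 direction in any comparison, so no call among 4 genes is near that share. Col4a1 and Col4a2, which form the widespread type IV network, stood at 114 and 56.7 CPM at 0 h and at 145 and 78.2 CPM at 96 h. Col4a5 and Col4a6 stood at 20.2 and 10.7 CPM at 0 h and at 26.9 and 14.2 CPM at 96 h. All 4 were highest with BMP4 and FGF4, at 194, 114, 37.1 and 20.8 CPM for Col4a1, Col4a2, Col4a5 and Col4a6. Their log2 ratios lay between 0.35 and 0.46 for 96 h over 0 h, and between 0.72 and 0.88 for BMP4 with FGF4 over BMP4 for 11 h. Col4a3 and Col4a4, chains of the mature kidney filter, stayed below 1 CPM, with highest values of 0.344 and 0.487 CPM.

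The type IV genes lie in head-to-head pairs, and the expressed ones kept nearly fixed ratios both within and between these pairs. In GENCODE M21 the starts of Col4a1 (chr8:11198423-11312826, minus strand) and Col4a2 (chr8:11312805-11449287, plus strand) overlap by 22 bases. The start of Col4a4 lies 72 bases from that of Col4a3 on chromosome 1, and that of Col4a6 lies 1309 bases from that of Col4a5 on chromosome X. Per length, Col4a1 over Col4a2 ranged from 1.505 to 1.78 over the 6 libraries and Col4a5 over Col4a6 from 2.03 to 2.31. Col4a1 over Col4a5, which lie on different chromosomes, ranged from 4.71 to 5.07, so the ratio was as steady between the pairs as within them. Col18a1, which is not a type IV gene, moved much like Col4a1. In CPM per kb, Col18a1 and Col4a1 stood at 18.0 and 15.2 at 0 h, 25.6 and 19.4 at 96 h, and 30.8 and 26.0 with BMP4 and FGF4. Ratios of gene pairs over all genes were not computed, so such steadiness cannot be called particular to type IV.

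Ratios between chains of other collagens ranged from steady to variable. Col1a1 over Col1a2 per length was 1.45 at 0 h, 2.55 at 96 h, 1.36 with BMP4 for 5 h, 1.496 with BMP4 and FGF8, 2.38 with BMP4 for 11 h and 2.94 with BMP4 and FGF4. The libraries with much type I RNA were thus also those with more Col1a1 for each Col1a2. Col5a1 over Col5a2 was 3.18 at 0 h and between 1.51 and 1.82 in the other 5 libraries. The neighbours Col6a1 and Col6a2, which follow each other on the minus strand of chromosome 10, had a ratio between 1.06 and 2.15. Col9a3 over Col9a2, on different chromosomes, stayed between 0.831 and 1.07.

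**Figure D3:**
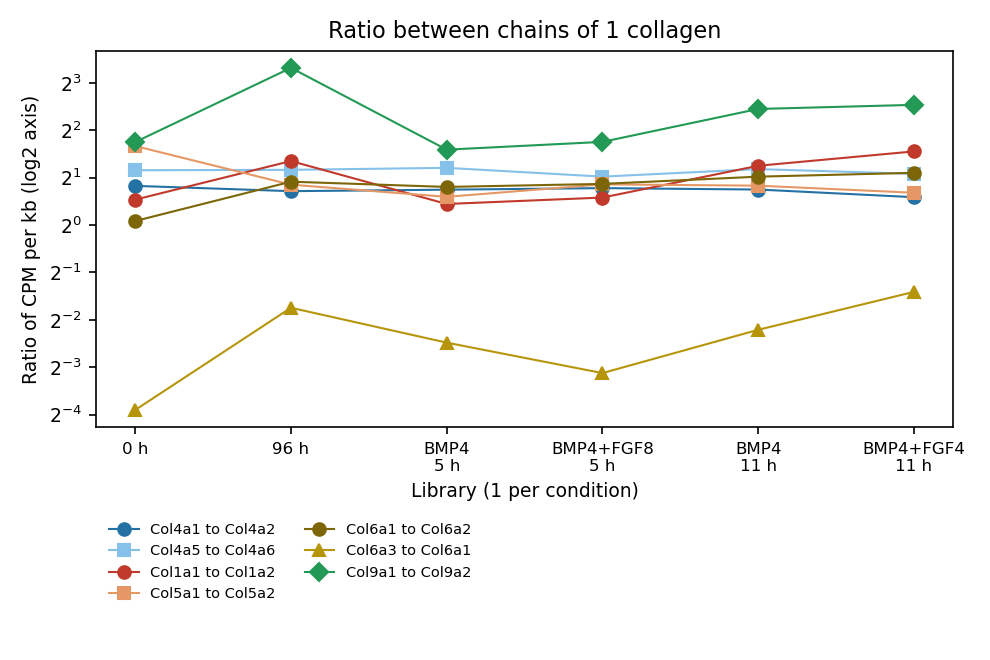
Ratio of the levels of chains of 1 collagen, each in CPM per kb of exon, on a log2 axis, in the 6 libraries (1 point per library, lines join the points of 1 pair). The 2 type IV pairs run almost level (1.505 to 1.78 and 2.03 to 2.31), while Col6a3 over Col6a1 goes from 0.0668 at 0 h to 0.376 with BMP4 and FGF4.

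The other basement membrane collagens are the multiplexins, whose ends can be cut to release endostatin-like fragments. Col18a1 was the highest collagen per length at 0 h, with 18.0 CPM per kb, and ranged from 123 CPM with BMP4 for 5 h to 217 with BMP4 and FGF4. Col15a1 (chr4:47208161-47313167, plus strand), whose upstream sequence is printed above, stood at 0.393 CPM at 0 h, 3.35 at 96 h, 0.592 with BMP4 for 5 h, 0.373 with BMP4 and FGF8, 1.63 with BMP4 for 11 h and 5.79 with BMP4 and FGF4. Its ratio of 96 h over 0 h was 8.51-fold (6.81 to 10.7), so the sole basement membrane gene called higher at 96 h was a low one.

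Among the 5 analysed FACIT genes, Col9a1, a chain of the type IX collagen on cartilage fibrils, was the one called. Col14a1, a FACIT gene left out because its row in the 5 h growth factor columns was in doubt, went from 2.82 CPM at 0 h to 11.03 at 96 h in the untreated columns. Col9a1 stood at 7.04 CPM at 0 h, 26.1 at 96 h, 7.79 with BMP4 for 5 h, 8.36 with BMP4 and FGF8, 15.8 with BMP4 for 11 h and 22.6 with BMP4 and FGF4. Its partner chains did not follow: Col9a2 ranged from 1.28 to 2.37 CPM and Col9a3 from 1.63 to 2.55. Col9a1 over Col9a2 per length went from 3.37 at 0 h to 9.98 at 96 h. Of 13 genes listed as markers of cartilage and notochord, 10 were placed and 7 analysed. The 10 summed to 72.3 CPM at 0 h and 106 at 96 h, and to between 69.1 and 115 over all libraries. Of the 7, 1 was higher at 96 h, Matn4 (0.0549 to 1.33 CPM), beside 3.87% of all genes, and none was lower, beside 2.3%. Hapln1 went from 39.1 to 59.8 CPM and Matn3 from 6.18 to 3.28. Matn1, Acan and Comp stayed below 1 CPM in every library, and the part of such cells in the Col9a1 difference was not tested. Col16a1 ranged from 1.68 CPM at 0 h to 7.08 with BMP4 and FGF4, and Col22a1 from 4.35 to 5.58.

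Type VI collagen forms beaded filaments around cells, and its chains were low at 0 h. Col6a3 (chr1:90765923-90843971, minus strand), the large chain that completes the trimer, stood at 0.219 CPM at 0 h, 3.82 at 96 h, 1.52 with BMP4 for 5 h, 0.902 with BMP4 and FGF8, 2.50 with BMP4 for 11 h and 8.79 with BMP4 and FGF4. Its 17.4-fold ratio of 96 h over 0 h (13.0 to 23.8) was the largest among the collagens as a ratio of CPM. Col6a1 stood at 1.20 CPM at 0 h, 4.69 at 96 h, 3.11 with BMP4 for 5 h, 2.88 with BMP4 and FGF8, 4.23 with BMP4 for 11 h and 8.55 with BMP4 and FGF4. Col6a2 ranged from 2.15 to 7.56 CPM and was 2.19-fold higher at 96 h than at 0 h as a ratio of CPM, with a log2 value of 0.98 that just missed the threshold. Col6a4 and Col6a5 stayed below 1 CPM.

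The transmembrane collagens went different ways. Col17a1, a chain of the hemidesmosomes that anchor epithelium, stood at 1.92 CPM at 0 h, 0.195 at 96 h, 1.60 with BMP4 for 5 h, 1.89 with BMP4 and FGF8, 1.32 with BMP4 for 11 h and 0.344 with BMP4 and FGF4. It was the sole collagen called lower at 96 h, 9.87-fold below 0 h (7.40 to 13.4), and its order of libraries ran nearly opposite to that of type I. Of 8 analysed epithelial markers, 5 were lower at 96 h (Epcam, Cdh1, Cldn6, Cldn7 and Esrp1), beside 2.3% of all genes. Another 2 were higher (Krt8 and Krt18), beside 3.87%. The 9 placed summed to between 97.7 and 137 CPM, a sum that mixes both directions. From 0 h to 96 h Cdh1 went from 19.7 to 9.60 CPM and Krt8 from 17.5 to 52.4. The part of epithelial cells in the Col17a1 difference was not tested. Col23a1 was 2.36-fold higher at 96 h (2.25 to 2.48), from 9.94 to 23.5 CPM. Col13a1 was highest at 0 h, with 9.70 CPM, and lowest at 96 h, with 6.59 CPM. Col25a1 ranged from 1.83 to 3.09 CPM.

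The remaining genes were mostly low. Col8a2, of the short-chain collagens of vessel and cornea matrix, was 3.73-fold higher at 96 h (2.99 to 4.69), from 0.443 to 1.65 CPM. Col10a1, known from hypertrophic cartilage, had 0.0503 CPM at 0 h, 0.0589 at 96 h, 0.434 with BMP4 for 5 h, 1.19 with BMP4 and FGF8, 0.0946 with BMP4 for 11 h and 0.687 with BMP4 and FGF4. Col10a1 was thus high where type I genes were low as well as where they were high, but 0.0503 CPM rests on 11 counts and no difference of the 7 compared passed 2-fold with 0.5 CPM added. The value with BMP4 and FGF8 rests on 268 counts, and the 7 do not set that library against an untreated one. Col7a1, of anchoring fibrils, ranged from 1.95 to 4.23 CPM, and Col26a1 from 35.1 to 58.4 CPM. Col19a1, Col20a1 and Col28a1 stayed below 1 CPM.

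In sum over all 44 genes, collagens made up 662 CPM at 0 h, 1465 at 96 h, 748 with BMP4 for 5 h, 745 with BMP4 and FGF8, 1071 with BMP4 for 11 h and 2069.9 with BMP4 and FGF4. Of the collagen level per length, fibrillar genes held 30.01% at 0 h and 51.9% at 96 h, and type IV genes 32.8% and 20.3%. The share of Col1a1, Col1a2 and Col3a1 alone was 8.78% at 0 h, 36.0% at 96 h and 40.4% with BMP4 and FGF4. In CPM per kb the leading gene was Col18a1 at 0 h, in both 5 h libraries and with BMP4 for 11 h, and Col1a1 at 96 h and with BMP4 and FGF4.

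**Figure D4:**
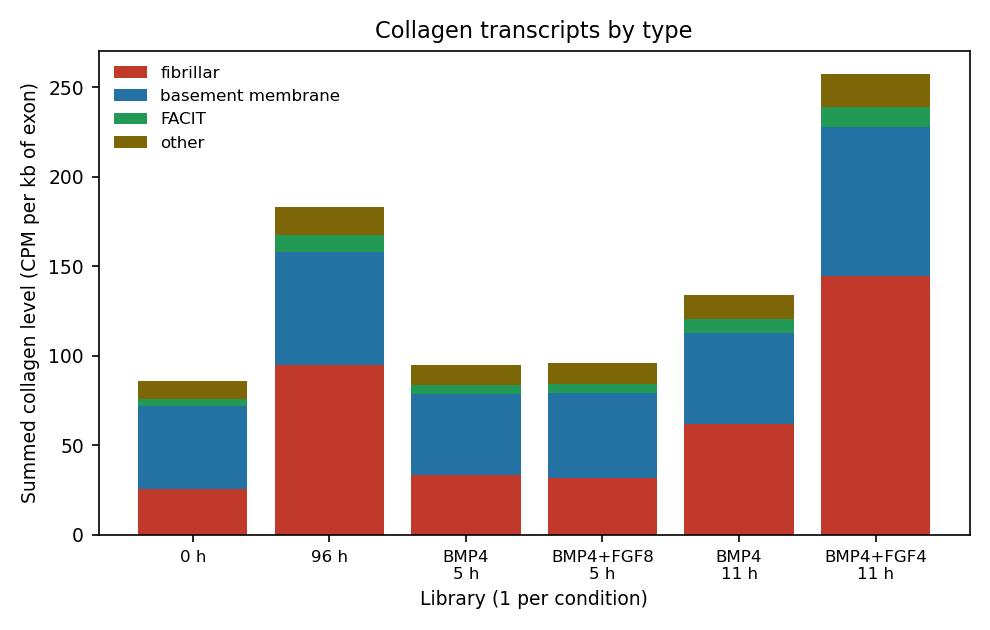
Summed level of the collagen genes in CPM per kb of exon, stacked by type, in the 6 libraries (1 bar per library, from 0, without error bars). The whole bar goes from 85.8 at 0 h to 183 at 96 h and 257 with BMP4 and FGF4, and the fibrillar share from 30.01% to 51.9% and 56.1%.

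With BMP4 for 5 h, most collagen levels lay below those at 96 h. Of the 33 genes, 6 were lower, where 3.35% of all genes were, and 1 was higher, where 2.26% were, and the median was -0.44 beside -0.01 over all genes. The 6 were Col1a1, Col1a2, Col3a1, Col6a3, Col9a1 and Col15a1, and the higher gene was Col17a1. Col1a1 was 6.09-fold lower (5.94 to 6.24) and Col3a1 5.94-fold lower (5.81 to 6.07). The same library set against 0 h had 3 genes higher, Col5a2, Col6a1 and Col6a3, where 0.434% of all genes were, and none lower, where 0.174% were. Col6a3 was 6.92-fold above 0 h (5.10 to 9.57), on 48 counts at 0 h. Both comparisons use the same BMP4 library, and 10 of the 33 genes were nearer to the 96 h value, which is 30.3% and near the 26.7% of all genes.

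With BMP4 for 11 h, Col1a1, Col1a2, Col3a1, Col5a1, Col5a2 and the analysed type IV genes lay between the untreated libraries. Some others did not: Col7a1 (3.95 CPM) and Col11a2 (3.70) were above both, and Col22a1 (4.35) below both. No analysed collagen was 2-fold above or below both, beside 0.912% and 0.0941% of all genes. The check for exchanged rows starts from genes far outside the range of the untreated libraries, so it partly fixes this count. Col12a1 and Col8a1, which it left out, were at least 2-fold above both as placed, each with a log2 ratio of 2.16 over 96 h. Against 96 h, 1 gene was higher, Col17a1, where 2.54% of all genes were, and none was lower, where 0.383% were. The median was -0.29. Col1a1 was 1.80-fold below 96 h (1.77 to 1.83) and Col15a1 2.05-fold below as a ratio of CPM (1.79 to 2.35), both within the threshold on the log2 scale. Against BMP4 for 5 h, 2 genes were higher, Col1a1 and Col3a1, where 2.66% of all genes were, and none was lower, where 0.405% were. Both were 3.37-fold higher. These comparisons share libraries with the preceding ones, and 20 of 33 genes were nearer to the 96 h value, beside 52.1% of all genes.

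Adding FGF8 to BMP4 for 5 h called no collagen gene in either direction, where 0.188% of all genes were higher and 0.0434% lower. The median was -0.02. Of the 11 fibrillar genes, 10 had a log2 ratio below 0, the lowest being Col5a2 with -0.36, 1.29-fold lower (1.24 to 1.34). Col6a3 was 1.68-fold lower (1.41 to 2.02) and Col10a1 2.74-fold higher as a ratio of CPM (2.16 to 3.50). With BMP4 and FGF8, Col10a1 was at least 2-fold above both untreated libraries, as were 0.123% of all genes. Col10a1 reached 1 CPM only with BMP4 and FGF8, so it was analysed because of that value. With 1 library each, differences of this size cannot be told apart from variation between cultures.

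Adding FGF4 to BMP4 for 11 h went with higher levels across the collagen types. Of the 33 genes, 7 were higher, where 1.27% of all genes were, and 1 was lower, where 0.622% were, and the median was 0.67 beside -0.03 over all genes. The 7 were Col1a1, Col1a2, Col3a1, Col5a1, Col5a2, Col6a3 and Col15a1, and the lower gene was Col17a1, 3.86-fold down (2.95 to 5.09). Col1a1 was 3.36-fold higher (3.30 to 3.41) and Col15a1 3.55-fold (3.11 to 4.06). The log2 ratio was above 0 for 11 of 11 fibrillar, 6 of 6 basement membrane and 5 of 5 FACIT genes, with medians of 0.95, 0.83 and 0.34. In the other classes it was above 0 for 9 of 11, with a median of 0.57. Col5a3, among the fibrillar genes, reached 1 CPM only with BMP4 and FGF4, so the filter fixed its direction here. Scaling by library totals instead of TMM moved the median over all genes by 0.14 in this comparison and raised the count of higher collagens from 7 to 13. Of the 33 genes, 30 were nearer to the 96 h value than to the 0 h value, beside 60.4% of all genes, and Col6a3 and Col10a1 were at least 2-fold above both untreated libraries, as were 0.948% of all genes. Col12a1 and Col8a1, left out by the check for exchanged rows, were also above both as placed, with log2 ratios over 96 h of 2.60 and 2.38.

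Sums of markers of some other cells moved with the type I and III genes, with exceptions among single markers. Fibroblast markers, which the feeder layer would also carry (14 placed of 15 named), summed to 323 CPM at 0 h, 574 at 96 h, 372 with BMP4 for 5 h, 345 with BMP4 and FGF8, 466 with BMP4 for 11 h and 690.2 with BMP4 and FGF4. Of the 13 analysed, 7 were higher at 96 h than at 0 h, including Lum and Postn, and 6 were higher with FGF4 added, beside 3.87% and 1.27% of all genes. Lum, a small proteoglycan on collagen fibrils, went from 0.247 CPM at 0 h to 30.1 at 96 h and 43.8 with BMP4 and FGF4. Thy1, by contrast, was at 0.658 CPM at 0 h and 0.420 at 96 h. Fbln2 likewise went from 24.4 CPM at 0 h to 14.6 at 96 h, and stood between 26.4 and 40.8 in the growth factor libraries. The 15 endothelial markers summed to 21.6, 142, 21.1, 22.3, 72.8 and 201 CPM in the same order, with 14 of them higher at 96 h and 9 higher with FGF4 added. The 8 smooth muscle and pericyte markers summed to 41.8, 112, 81.3, 61.3, 96.4 and 172 CPM in that order of libraries. The 10 placed red blood cell markers summed to 16.1 CPM at 0 h, 3112 at 96 h and 21.4 with BMP4 for 5 h, but to 2928 with BMP4 for 11 h and 1991 with BMP4 and FGF4, which is not the order of the type I genes. The part of any of these cells in the collagen differences was not tested.

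Of 21 analysed genes that fold and modify collagen, 2 were higher at 96 h than at 0 h and none was lower, with a median of 0.27. Over all genes 3.87% were higher and 2.3% lower, with a median of -0.003, and 2 genes are too few to set the list apart from these shares. The 96 h counts of the other partner lists are to be read against the same shares. The 2 were Leprel1, a prolyl 3-hydroxylase, and Creb3l1, a transcription factor known to act on collagen genes, which is named for its call and went from 0.34 CPM at 0 h to 6.51 at 96 h and 12.1 with BMP4 and FGF4. P4ha2, a prolyl 4-hydroxylase subunit, went from 12.6 CPM at 0 h to 23.0 at 96 h, Plod1, a lysyl hydroxylase, from 17.5 to 29.2, and Leprel4 from 6.26 to 11.8. The general collagen chaperone Serpinh1 stood between 271 and 308 CPM in all libraries. With FGF4 added, Creb3l1 alone of the 21 was called higher, where 1.27% of all genes were.

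Of 10 genes of procollagen cleavage and crosslinking, 4 were higher at 96 h (Pcolce, Adamts2, Lox and Loxl1), beside 3.87% of all genes, and 1 was lower (Pcolce2), beside 2.3%. Pcolce, which speeds the removal of the C-terminal propeptide, went from 9.47 CPM at 0 h to 33.0 at 96 h, and Pcolce2 from 8.16 to 3.22. Adamts3, a procollagen N-proteinase, went from 29.4 to 34.8 CPM. Lox, the enzyme that crosslinks collagen and elastin, had another order than the type I genes: 0.59 CPM at 0 h, 2.26 at 96 h, 14.5 with BMP4 for 5 h, 8.14 with BMP4 and FGF8, 12.8 with BMP4 for 11 h and 21.7 with BMP4 and FGF4. All 4 growth factor libraries were thus above both untreated ones for Lox.

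Among 8 collagen receptors and uptake genes, 1 was higher at 96 h, the receptor tyrosine kinase Ddr2, from 4.50 to 19.8 CPM. Itgb1, the common integrin beta chain, went from 128 to 142 CPM, Ddr1 from 40.6 to 31.0 and the uptake receptor Mrc2 from 44.9 to 65.6. None of 8 genes of collagen degradation was called in any comparison, among them Mmp15 (19.5 to 23.0 CPM over all libraries), Mmp16 (5.87 to 7.73) and the inhibitors Timp2 (22.6 to 31.7) and Timp3 (15.7 to 37.3). At most 3.87% of all genes were called in 1 direction in any comparison, so no call among 8 genes is near that share. Of 15 basement membrane partners, 4 were higher at 96 h and none lower, although their median was -0.29. These were Lama2, Lama4, Nid1 and Sparc, and the laminin chain Lama1 went the other way, from 82.7 to 41.8 CPM. With FGF4 added, Lama2, Lama4, Nid1 and Hspg2 were higher, where 1.27% of all genes were, and Hspg2 only just reached the threshold. Nid1, which links laminin to type IV collagen, went from 15.5 CPM at 0 h to 45.4 at 96 h, and from 29.7 to 60.7 CPM with FGF4 added.

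Of 10 fibril partners, 7 were higher at 96 h, beside 3.87% of all genes, and none was lower, with a median of 1.39. Postn, a matricellular protein that binds collagen, went from 2.60 CPM at 0 h to 102 at 96 h, 20.02 with BMP4 for 5 h and 137 with BMP4 and FGF4. Bgn, the proteoglycan biglycan, was higher in every growth factor library (18.2 to 42.0 CPM) than at 0 h (2.93) or 96 h (10.1). Fn1, fibronectin, on which collagen fibrils assemble, was lower at 96 h (303 CPM) than in the other 5 libraries (429 to 572).

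For 4 collagens the row could not be settled in the 5 h growth factor columns. The values of Col12a1 and Col14a1, and likewise those of Col6a6 and Col8a1, could have been exchanged in the BMP4 5 h and the BMP4 with FGF8 columns. In the untreated columns, which need no placing, Col14a1 stood at 2.82 CPM at 0 h and 11.03 at 96 h and Col12a1 at 3.18 and 4.28. As placed, Col12a1 was at 16.3 CPM and Col14a1 at 2.66 with BMP4 for 5 h, and exchanged it is the reverse. As placed, Col8a1 was at 3.35 CPM and Col6a6 at 0.271 with BMP4 for 5 h, beside 0.265 and 0.201 at 0 h. One gene of each pair was therefore well above 0 h in the 5 h BMP4 library under either reading. The 11 h columns gave no sign of an exchange. As placed there, Col12a1 stood at 20.8 CPM with BMP4 and 28.5 with BMP4 and FGF4, and Col14a1 at 7.09 and 11.7. Col8a1 stood at 3.21 and 3.83 CPM in these columns, and Col6a6 at 0.958 and 0.381. No call is made for these 4. Since each exchange stays within 1 type, the sums of CPM by type do not depend on it.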

How the data were processed

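The deposited table gives raw counts per gene for 6 libraries of total RNA (TruSeq Stranded kit, per the labels). Build mm10 and the tools STAR 2.4.0e, HTSeq, cutadapt and DESeq come from the submitters' processing notes, without the settings of the counting. Of the counts from 1 to 20, 65.4% to 70.9% are even, and where mates were counted separately the counting intervals understate the error. The untreated columns hold 1 value per name (19342), but the growth factor columns hold 19415 to 19826 values and correlate with the 96 h column at r = 0.0496 to 0.138 row by row across genes. Names were sorted without regard to case and each column was aligned in order to both untreated columns, after which r across genes was 0.965 to 0.985. A name was kept with an alignment margin of at least 5 in each column and no sign that it was exchanged with a row within 3 positions, which left 17169 names. The 44 collagens have 1 constant offset per column, and no collagen changed row when 1 untreated column alone was used. On simulated data, 99.6% to 99.7% of expressed genes were kept and 100% of those kept were right, but that simulation held no order faults. The exchange check was applied, removed and restored after results under both settings had been seen (33 collagens analysed with it and 36 without), because order faults were found elsewhere in the columns. Calls without it are given in the closing section.

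TMM scaling used edgeR 4.0.16 (R 4.3.3), with no test, since each condition has 1 library. Genes under 1 CPM in all libraries were left out. A level of 3 counts equals 0.0110 to 0.0177 CPM. Exon lengths are from GENCODE M21 (GRCm38), with the exons of all transcripts of a gene merged (12426 bases for Col1a2 and 6563 for Col1a1). Levels per length, shares and ratios between genes depend on these lengths. The change of 1 ratio between libraries does not. Named genes are all members, with 6 values for most of those that reach 5 CPM or that a result turns on. Partner genes named are up to 4 per list with the largest 96 h over 0 h ratio at a mean of at least 5 CPM, and exceptions are genes named for their call, Serpinh1, Hspg2 and marker genes. Members and lists were chosen with earlier results of these data known. Alternatives were library totals, 2 CPM added, other filters and placement on 1 untreated column.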

Additional observations from a re-analysis of the deposited data

How the results depend on the processing

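No paired analysis was possible because each condition has 1 library, and for the same reason no library could be left out. No called collagen ratio changed direction under the alternatives run, but uncalled ratios near 0 did: under library totals Col2a1 went from 0.07 to -0.03 for BMP4 for 11 h over 5 h, and Col13a1 from -0.06 to 0.08 with FGF4. The higher calls at 96 h over 0 h and with FGF4 over BMP4 alone, and the lower calls with BMP4 for 5 h over 96 h, stayed within 1.5 times under all alternatives except that library totals gave 13 higher with FGF4 in place of 7, adding among others Col4a2 (log2 1.02), Col4a6 (1.02), Col6a1 (1.07), Col11a1 (1.09) and Col16a1 (1.11). The calls of Col17a1 were the least stable: with 2 CPM added, and with only genes that reach 5 CPM, the count of lower genes was 0 for 96 h over 0 h and 0 with FGF4, and the count of higher genes was 0 with BMP4 for 5 h and 0 with BMP4 for 11 h over 96 h. With 2 CPM added, BMP4 for 5 h over 0 h had 1 higher gene in place of 3, as Col6a1 (0.67) and Col6a3 (0.66) fell short, and Col6a3 was no longer called with BMP4 for 5 h over 96 h (-0.73). Placing on the 96 h column alone gave 0 higher with BMP4 for 5 h and 0 with BMP4 for 11 h over 96 h, and 0 lower with FGF4, and placing on the 0 h column alone gave 0 lower with FGF4. These placements kept fewer genes, with 29 and 30 collagens analysed. Without the exchange check, an alternative chosen after seeing the data, 36 collagens were analysed, and the higher calls were 3 with BMP4 for 5 h over 96 h, 5 with BMP4 for 5 h over 0 h and 3 with BMP4 for 11 h over 96 h, in place of 1, 3 and 1. Depth limits only the lowest genes: Col10a1 at 0 h rests on 11 counts.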
